A study of Rattus norvegicus with 134 samples.

Results

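The 4 miRNA described here, rno-miR-142-5p, rno-miR-142-3p, rno-miR-150-5p and rno-miR-451, were taken by name from a table of 185 rat miRNA names, because they are best known from blood cells. Small RNA was sequenced in 77 libraries of Fischer 344 rats, 35 from heart, 29 from kidney and 13 from liver. Heat-stressed rats were warmed in an incubator until the core temperature reached a set maximum, T_c,max, then returned to normal housing, and tissue was taken at T_c,max, 24 h or 48 h. The controls were unheated rats of the same times, which the sample labels describe as never having been in the incubator and the study's methods as kept in one at room temperature. The heart groups had 6 heat-stressed rats at each time, against 5 controls at T_c,max and 6 at both later times. Kidneys came from 5 heat-stressed and 5 control rats at T_c,max, from 6 heat-stressed and 4 control rats at 24 h, and from 4 heat-stressed and 5 control rats at 48 h. Livers of T_c,max came from 6 heat-stressed and 6 control rats. There was also 1 control liver at 24 h, which entered no comparison. Some heat-stressed rats at 48 h had organ injury, but the labels do not say which, so that they form 1 group.

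miR-142 is transcribed in cells of the blood-forming lineages, and both arms of its hairpin are loaded into Argonaute proteins in leukocytes. miR-150-5p is abundant in mature lymphocytes, where the transcription factor Myb is a well-known target. miR-451 is a miRNA of the red cell lineage. Its short hairpin is cut by Argonaute 2 rather than by Dicer, and its gene lies next to that of miR-144. In a whole organ all of them can come from blood in the vessels as well as from resident immune cells, and in such bulk samples fewer cells of a type and less RNA per cell cannot be told apart.

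The mature sequences are shown because the table lists miR-142 by arm, and because the 2 arms are read here as separate measurements. They are credited to RefSeq (build GRCr8), run 5′ to 3′, and have the seed, bases 2 to 8, in capitals.
miR-142-5p: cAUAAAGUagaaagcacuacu
miR-142-3p: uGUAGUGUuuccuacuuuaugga
miR-451-5p: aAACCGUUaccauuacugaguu
Both arms of miR-142 came from the plus strand of chromosome 10, miR-142-5p at chr10:73055119-73055139 and miR-142-3p at chr10:73055155-73055177, inside the span of the gene Tspoap1. miR-451-5p lay at chr10:63459585-63459606. The table gives miR-451 with no arm, and the 5p arm is printed as the one known to be the functional product. The 3 seeds differed from each other, and each was held by 1 of 724 mature rat miRNA in the RefSeq table. The 2 arms of miR-142 stand opposite each other in the hairpin, shown here with both arms in capitals.
Mir142 hairpin: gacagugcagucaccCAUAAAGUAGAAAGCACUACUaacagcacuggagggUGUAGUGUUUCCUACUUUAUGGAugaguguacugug

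Levels are given as deposited, log2(CPM + 1), where CPM scales the reads of a name to a common library total. Total reads were 126279 to 879244 per heart library, 355221 to 2224069 per kidney library and 126700 to 379444 per liver library. Behind the values stood 11 to 780 reads of miR-142-5p per heart, 0 to 1328 per kidney and 95 to 231 per liver. miR-150-5p had 27 to 1372 reads per heart, 8 to 1054 per kidney and 56 to 344 per liver. miR-142-3p and miR-451 rested on fewer reads. miR-142-3p had 8 to 109 reads per heart, 21 to 122 per kidney and 4 to 17 per liver, and miR-451 had 3 to 113, 1 to 591 and 2 to 14. In the liver 5 of 13 libraries had under 5 reads of miR-451, so that its liver levels are imprecise.

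Both libraries of rat 307, heat-stressed at 48 h, stood apart. The library labelled heart of rat 307 had a summed striated muscle level (8 names) of 8.34, against 14.79 to 16.80 in the other 5 heat-stressed hearts at 48 h, and its summed level of 15 kidney tubule and epithelial names was 17.94, against 16.15 to 16.96. In all other hearts that muscle sum was 14.79 or more, and in all kidneys 7.84 or less, so that the library goes against its label. The hepatocyte sum (3 names) was at least 13.76 in livers and at most 8.19 elsewhere, and the epithelial sum was highest in kidneys, as those labels state. The kidney library of rat 307 had an epithelial sum of 19.26, against 19.08 to 19.10 in the other 3 heat-stressed kidneys at 48 h, a sum to which miR-10b (18.10) and miR-10a-5p (17.92) gave most. Yet 9 of the 15 epithelial names were lower there than in every other kidney, such as miR-192-5p at 12.32, against 15.78 to 16.19, and miR-194-5p at 4.87, against 9.98 to 10.87. Its stroma sum (2 names) was 6.88, against 10.66 to 10.98. The 48 h fold changes of the 4 miRNA are therefore given with and without this rat.

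**Figure D1:**
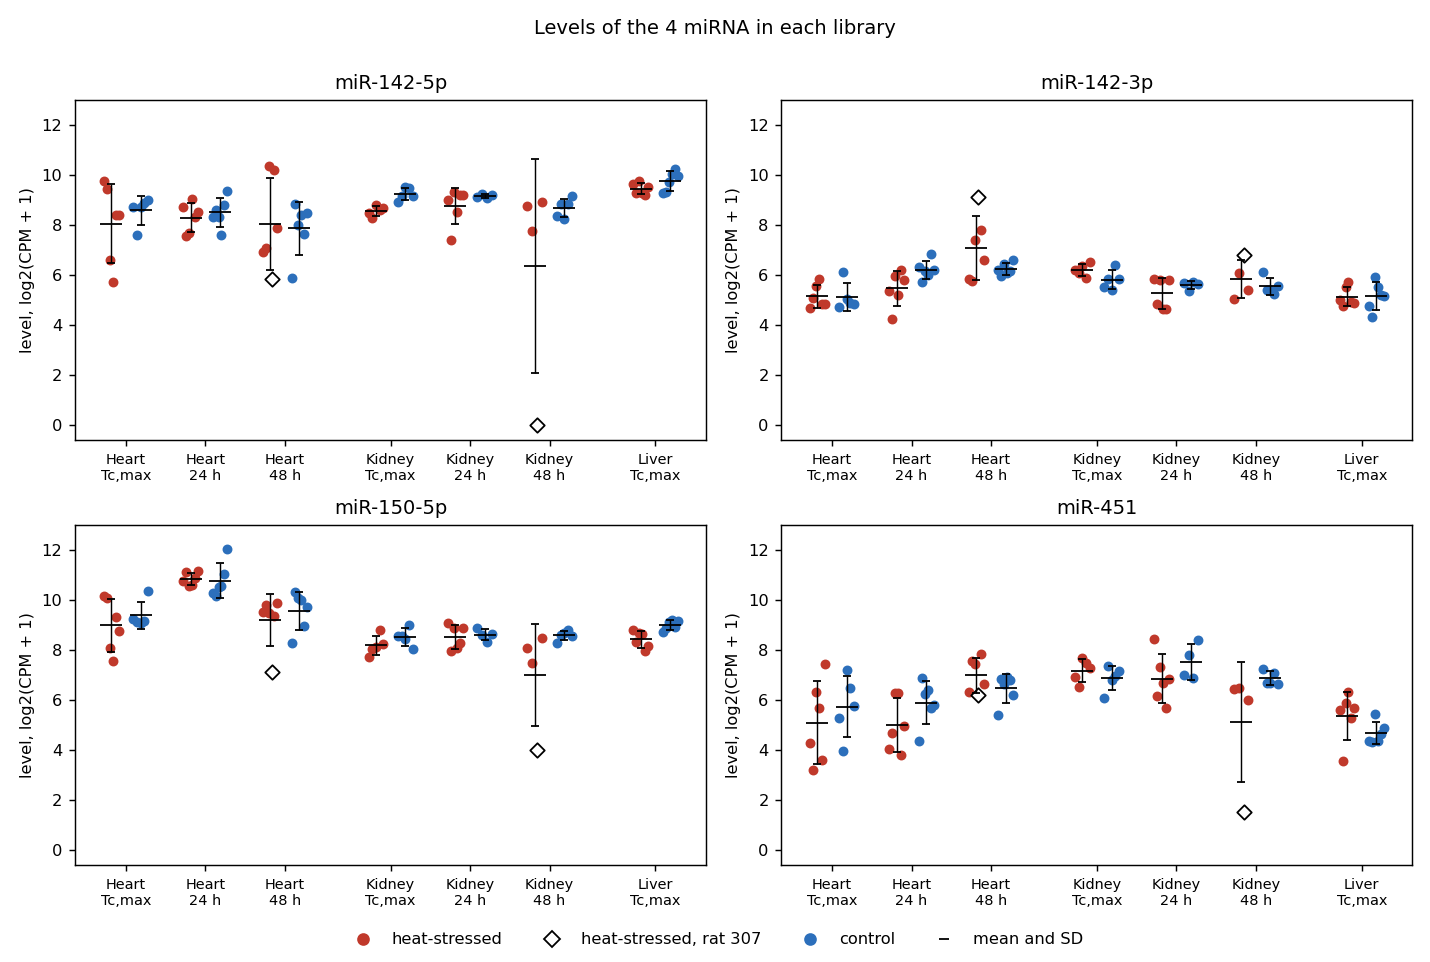
Level of each miRNA in every library, as log2(CPM + 1), by organ and time, with heat-stressed rats (red, rat 307 as an open diamond) left of their controls (blue). Horizontal marks and bars are the mean and SD, and the kidney library of rat 307 sits at 0 for miR-142-5p and at 1.53 for miR-451.

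In control rats 3 of the 4 miRNA differed between organs in at least 1 comparison. At T_c,max the order of the averages for miR-142-5p was liver, kidney, heart. For miR-451 it was kidney, heart, liver, for miR-150-5p heart, liver, kidney, and for miR-142-3p kidney, liver, heart. For miR-150-5p and miR-142-3p no pair of organs passed at T_c,max with all libraries. For miR-142-5p only liver minus heart passed, and for miR-451 only liver minus kidney. None of these orders of the 3 organs is therefore established in full. For miR-142-3p liver minus heart (0.03) turned sign in 5 of 11 fits with 1 library left out. Organs were compared within the controls with limma against a small minimum fold change, with Benjamini-Hochberg adjustment over all 185 names. Between organs many names differ. At T_c,max 50.8% of the 185 names passed for kidney minus heart, 71.9% for liver minus heart and 65.4% for liver minus kidney, and for kidney minus heart 53.0% passed at 24 h and 56.2% at 48 h. At T_c,max 0, 1 and 1 of the 4 miRNA passed in these 3 comparisons, and in kidney minus heart 2 passed at 24 h and 1 at 48 h. Counts out of 4 names are too small to be set above or below those backgrounds. The comparisons at T_c,max share control libraries. The share of the 185 names whose groups did not overlap between organs was not counted. The separations between organs given below therefore have no background beside them. Each organ was sequenced in a lane of its own, and the heart was ground by another method, so that organ, lane and grinding cannot be told apart.

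miR-150-5p was lower in the kidney than in the heart at 24 h and 48 h. At 24 h its levels in control kidneys were 8.88, 8.60, 8.34 and 8.66, and in the 6 control hearts the lowest was 10.18, the median 10.55 and the highest 12.05. The groups did not overlap. The log2 difference was -2.16 (SE 0.31, adjusted p = 1.575e-06). At 48 h control kidneys averaged 8.59 ± 0.19 (SD, n = 5) and control hearts 9.56 ± 0.77 (SD, n = 6), with overlap only at the lowest heart. The difference of -0.97 (SE 0.29, adjusted p = 0.0281) was lost when heart control rat 312, 314 or 315 or kidney control rat 311 was left out (adjusted p = 0.0593 to 0.0763). At T_c,max control kidneys lay at 8.05 to 9.02 and control hearts at 9.07 to 10.35, again with no overlap, and the difference of -0.87 (SE 0.30) missed the threshold (adjusted p = 0.0735). It passed with median-ratio scaling (adjusted p = 0.0203) and without kidney control rat 293 (adjusted p = 0.0437). Control livers lay between the other organs, at 8.73 to 9.21. Liver minus heart was -0.40 (SE 0.29, adjusted p = 0.474) and liver minus kidney 0.47 (SE 0.29, adjusted p = 0.38), the last of which was 0.90 and passed with median-ratio scaling (adjusted p = 0.0272).

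miR-451 was higher in the kidney than in the heart at 24 h and lower in the liver than in the kidney at T_c,max. At 24 h control kidneys stood at 7.02, 7.82, 6.88 and 8.39, and the 6 control hearts had a lowest value of 4.38, a median of 6.03 and a highest of 6.90. Only 1 kidney lay, narrowly, below the highest heart. The log2 difference was 1.62 (SE 0.45, adjusted p = 0.0068). At T_c,max it was 1.14 (SE 0.44, adjusted p = 0.0678), a call that passed without heart control rat 291 or 293 or kidney control rat 289 (adjusted p = 0.0106, 0.0398 and 0.0381). Without heart control rat 289 it was 0.69 (adjusted p = 0.288). At 48 h it was 0.40 (SE 0.42, adjusted p = 0.608). Control livers lay at 4.33 to 5.45 and control kidneys at 6.10 to 7.37 at T_c,max, with no overlap. Liver minus kidney was -2.21 (SE 0.42, adjusted p = 7.325e-05). Liver minus heart was -1.07 (SE 0.42, adjusted p = 0.0571), or -1.52 (adjusted p = 0.00358) without heart control rat 289. It also passed without heart control rat 288 (adjusted p = 0.0452), without liver control rat 291 (adjusted p = 0.032) and with the rat as a block (adjusted p = 0.0489). It was smaller, at -0.70 (adjusted p = 0.239), without heart control rat 291 and at -0.77 with median-ratio scaling.

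miR-142-5p was higher in the liver than in the heart. The 6 control livers had a lowest level of 9.30, a median of 9.86 and a highest of 10.27, and the control hearts at T_c,max stood at 8.72, 7.60, 8.75, 8.88 and 9.02. The groups did not overlap. The log2 difference was 1.18 (SE 0.33, adjusted p = 0.0108), and 0.94 (adjusted p = 0.0541) without heart control rat 289, the low one. Kidney minus heart was 0.67 (SE 0.35, adjusted p = 0.244) at T_c,max, 0.66 (SE 0.36, adjusted p = 0.258) at 24 h and 0.81 (SE 0.33, adjusted p = 0.126) at 48 h, the last of which passed without heart control rat 312 (adjusted p = 0.0435). Liver minus kidney was 0.51 (SE 0.33, adjusted p = 0.365), and 0.94 (adjusted p = 0.034) with median-ratio scaling.

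No organ difference of the 3p arm of the same hairpin passed, and the order of its averages at T_c,max was not that of the 5p arm. At 24 h control kidneys lay at 5.36 to 5.72 and control hearts at 5.75 to 6.85, with no overlap. Kidney minus heart was 0.68 (SE 0.28, adjusted p = 0.165) at T_c,max, -0.62 (SE 0.28, adjusted p = 0.23) at 24 h and -0.70 (SE 0.27, adjusted p = 0.131) at 48 h, the last of which passed with voom on reads (-0.78, adjusted p = 0.0327). Liver minus heart was 0.03 (SE 0.27, adjusted p = 0.971) and liver minus kidney -0.66 (SE 0.27, adjusted p = 0.147). The sign of kidney minus heart changed with the time of the controls. The kidney controls averaged 5.82 ± 0.38 (SD, n = 5), 5.61 ± 0.17 (SD, n = 4) and 5.56 ± 0.35 (SD, n = 5), and the heart controls 5.14 ± 0.58 (SD, n = 5), 6.23 ± 0.37 (SD, n = 6) and 6.26 ± 0.24 (SD, n = 6), in the order of the times. Without heart control rat 289, in which miR-142-3p was high, the T_c,max difference of kidney minus heart was 0.94 and passed (adjusted p = 0.0285).

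**Figure D2:**
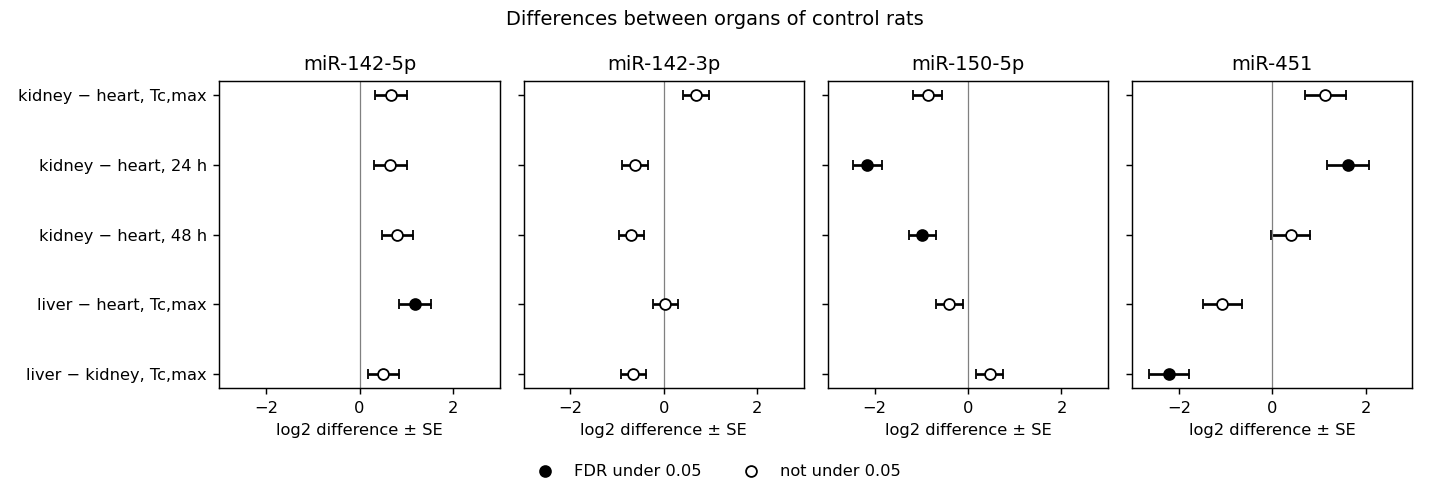
Log2 difference ± SE between organs of control rats for each miRNA (x axis), with 1 row for each pair of organs and time. Filled points passed an FDR of 0.05 and open points did not. miR-150-5p lies left of 0 and miR-451 right of 0 in kidney minus heart at all 3 times.

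The averages of control hearts also varied between times, without heat. miR-150-5p averaged 9.40 ± 0.54 (SD, n = 5) at T_c,max, 10.78 ± 0.70 (SD, n = 6) at 24 h and 9.56 ± 0.77 (SD, n = 6) at 48 h. The 24 h difference from T_c,max was 1.38 (SE 0.46, adjusted p = 0.255). For miR-142-3p the differences from T_c,max were 1.09 at 24 h (SE 0.42, adjusted p = 0.673) and 1.12 at 48 h (SE 0.42, adjusted p = 0.447). None of the 4 miRNA passed, where 1.84% of 163 names passed at 24 h and 1.23% at 48 h. In the kidney controls 0% of 175 names passed at either time, with an adjusted p of 1 for each of the 4 miRNA. These 3 differences between unheated hearts were larger in size than any heat fold change of the 4 miRNA outside the kidney at 48 h, with all libraries and controls of the same time.

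None of the 4 miRNA passed the test for heat stress against control in the heart, the kidney or the liver. In the heart 0% of 163 names passed at T_c,max and at 24 h, and 1.23% at 48 h, in the kidney 0% of 175 names at each time, and in the liver 0% of 176 names at T_c,max. The 4 miRNA contributed 0 calls in all 7 comparisons, in limma and in exact permutation tests adjusted over all names. At an unadjusted p under 0.05 limma had 3, 0 and 18 heart names, 0, 0 and 29 kidney names and 2 liver names.

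At T_c,max the clearest separation was in the kidney. miR-142-5p stood at 8.51, 8.30, 8.82, 8.62 and 8.68 in heat-stressed kidneys, and at 8.95, 9.18, 9.53, 9.49 and 9.19 in control kidneys. All 5 heat-stressed rats lay below every control. The log2 fold change was -0.68 (SE 0.97, adjusted p = 0.999 from limma), with an SE of 0.26 and an adjusted p of 1 when rat 307 was left out of the spread. An exact two-sided permutation test gave p = 0.00794, the smallest that 5 against 5 allow, and 0.0514 after adjustment over all 175 names. Groups without overlap were common in this comparison, at 15.4% of names. The heat-stressed kidneys had 355221 to 1247746 reads and the control kidneys 680596 to 1329683, and the summed level of 4 endothelial names, none of them at 0, was 12.75 to 13.14 in heat-stressed and 13.28 to 13.53 in control kidneys. The part of either in the result was not tested. miR-142-3p had the opposite sign, with 6.20, 6.09, 6.37, 5.88 and 6.54 in heat-stressed kidneys and 5.54, 5.87, 5.43, 6.41 and 5.85 in control kidneys (log2 fold change 0.39, SE 0.30, adjusted p = 0.999). miR-150-5p was at -0.34 (SE 0.50) and miR-451 at 0.30 (SE 0.64), with the same adjusted p.

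In the liver at T_c,max miR-150-5p was lower on average in heat-stressed rats. The heat-stressed livers had a lowest level of 7.98, a median of 8.48 and a highest of 8.79, and the control livers 8.73, 9.02 and 9.21. Every one of the 6 heat-stressed livers lay under the mean of the controls, and 5 lay under the lowest control. The log2 fold change was -0.57 (SE 0.14, adjusted p = 1 from limma). The exact two-sided permutation p was 0.00433, or 0.381 after adjustment over all 176 names. miR-142-5p was at -0.32 (SE 0.16), miR-142-3p at -0.01 (SE 0.33) and miR-451 at 0.71 (SE 0.43), the last on 2 to 14 reads per library, and each had an adjusted p of 1. Of the 6 heat-stressed livers, 4 lay above every control for miR-451 and 1 below every control.

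In the heart at T_c,max the heat-stressed rats were spread widely. miR-142-5p had a lowest level of 5.74, a median of 8.42 and a highest of 9.76 in heat-stressed hearts, and stood between 7.60 and 9.02 in control hearts. Rats 280 and 281 lay above every control and rats 282 and 283 below, and the log2 fold change was -0.53 (SE 0.68). miR-150-5p put the same rats at its ends, with 10.18 and 10.08 in rats 280 and 281 and 8.10 and 7.56 in rats 282 and 283. Its log2 fold change was -0.40 (SE 0.46). For miR-451 it was -0.65 (SE 0.63) and for miR-142-3p 0.02 (SE 0.42). The adjusted p was 0.999 for all 4. Single libraries set the size of these values. Without rat 283 miR-142-5p was at -0.06 and miR-150-5p at -0.11, and without rat 280 they were at -0.86 and -0.63. For miR-451 the range was -1.12 without rat 285 to -0.27 without rat 281.

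At 24 h the averages of miR-150-5p in heat-stressed and control rats lay within 0.1 of each other. It averaged 10.84 ± 0.25 (SD, n = 6) in heat-stressed hearts and 10.78 ± 0.70 (SD, n = 6) in control hearts, and 8.53 ± 0.48 (SD, n = 6) in heat-stressed kidneys and 8.62 ± 0.22 (SD, n = 4) in control kidneys. The log2 fold changes were 0.07 (SE 0.44) and -0.09 (SE 0.51). Against control hearts of all 3 times pooled, the heart value was 0.90 (SE 0.41, adjusted p = 0.999). miR-451 was lower on average in both organs (heart -0.90, SE 0.60, and kidney -0.66, SE 0.66). In the heart its lowest, median and highest levels were 3.79, 4.82 and 6.27 in heat-stressed rats and 4.38, 6.03 and 6.90 in controls, so that the groups overlapped broadly. For miR-142-3p the heart gave -0.75 (SE 0.40) and the kidney -0.33 (SE 0.30), and for miR-142-5p the heart gave -0.21 (SE 0.65) and the kidney -0.39 (SE 0.99). The adjusted p was 0.999 for each of these values. For miR-142-3p in the heart the exact two-sided permutation p was 0.0346, or 0.866 after adjustment over all 163 names, with 6 of 6 heat-stressed hearts under the mean of the controls and 3 under the lowest control.

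At 48 h the heart showed the largest spread of miR-142-5p among the heart groups. In heat-stressed hearts, rats 304, 305 and 309 had 6.94, 7.10 and 7.91, rats 306 and 308 had 10.38 and 10.20, and the library labelled heart of rat 307 had 5.84. The 6 control hearts had a lowest level of 5.90, a median of 8.22 and a highest of 8.86. Rats 306 and 308 thus lay above every control, and the library of rat 307 below. The log2 fold change was 0.17 (SE 0.65, adjusted p = 0.999), and 0.61 (SE 0.63, adjusted p = 0.998) without rat 307. miR-142-3p was also high in rats 306 and 308, at 7.41 and 7.80, but highest in the library of rat 307, at 9.13. The control hearts lay between 5.98 and 6.62. Of the 6 heat-stressed hearts, 4 were above every control and 2 below. The log2 fold change was 0.84 (SE 0.40, adjusted p = 0.638), and 0.44 (SE 0.35, adjusted p = 0.998) without rat 307. In the heart of rat 306 the summed smooth muscle level (4 names) was 18.44 and the stroma level 12.46, against 16.53 to 17.69 and 10.30 to 11.63 in the other 5. Its striated muscle sum was 14.79, against 16.18 to 16.80 in the others apart from the library of rat 307. Its red cell sum, which includes miR-451, was 13.80, against 12.44 to 13.65 in the other 5. In this group miR-16-5p (10.55 to 13.16) and miR-92a-1 (10.88 to 12.07) together gave most of the red cell sum. The part of these sums in the result was not tested. Rat 308 had 126279 reads, the fewest of the 35 hearts.

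In the heart at 48 h miR-451 and miR-150-5p did not pass either. miR-451 averaged 6.999 ± 0.699 (SD, n = 6) in heat-stressed hearts and 6.48 ± 0.58 (SD, n = 6) in control hearts, a log2 fold change of 0.52 (SE 0.60, adjusted p = 0.999), and 0.69 (SE 0.63, adjusted p = 0.998) without rat 307. It was above every control in 3 of 6 rats, 305, 306 and 308. miR-150-5p lay at 9.36 to 9.90 in 5 heat-stressed hearts and at 7.12 in the library of rat 307, against 8.30 to 10.31 in the controls. Its log2 fold change was -0.37 (SE 0.44) with and 0.05 (SE 0.39) without that library.

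In the kidney at 48 h the differences were large with rat 307 and smaller without it. Heat-stressed rats 305, 306, 307 and 309 had 8.77, 7.76, 0 and 8.94 of miR-142-5p, and control kidneys had 8.38, 8.84, 8.26, 8.84 and 9.17. In rat 307 it had 0 of 532473 reads, which allows up to 3 reads, or 2.73 on the log2 scale. The log2 fold change was -2.33 (SE 1.03, adjusted p = 0.26), and -0.21 (SE 0.30, adjusted p = 1) without rat 307. miR-150-5p stood at 8.09, 7.47, 4.00 and 8.48 in heat-stressed kidneys of the same rats and at 8.29, 8.62, 8.67, 8.81 and 8.56 in control kidneys. Its log2 fold change was -1.58 (SE 0.53, adjusted p = 0.26), and -0.57 (SE 0.26, adjusted p = 1) without rat 307.

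For miR-451 in the kidney at 48 h every heat-stressed rat lay below every control. Its levels were 6.44, 6.49, 1.53 and 5.99 in heat-stressed kidneys and 7.26, 6.68, 6.67, 7.10 and 6.66 in control kidneys. Groups without overlap made up 1.71% of 175 names here. The log2 fold change was -1.76 (SE 0.68, adjusted p = 0.26 from limma), and -0.57 (SE 0.42, adjusted p = 1) without rat 307. The exact two-sided permutation p was 0.00794, the smallest that 4 against 5 allow, or 0.37 after adjustment. For miR-142-3p the sign was the opposite. It stood at 5.07, 6.09, 6.83 and 5.42 in heat-stressed kidneys, highest in rat 307, and at 6.15, 5.43, 5.40, 5.25 and 5.56 in control kidneys (log2 fold change 0.29, SE 0.32, and -0.03, SE 0.30, without rat 307). In the kidney of rat 307 the summed level of 9 leukocyte names was 11.20, against 14.04 to 14.32 in the other 3 heat-stressed kidneys. That of 5 red cell names was 10.60, against 12.87 to 13.08. These sums include the 4 miRNA, but other names gave most of them. In these kidneys miR-181a-5p (10.90 to 14.11) gave most of the leukocyte sum. miR-16-5p (6.32 to 12.06) and miR-92a-1 (10.45 to 11.87) together gave most of the red cell sum. The median log2 fold change of all 175 names was -0.43, and -0.06 with median-ratio scaling.

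**Figure D3:**
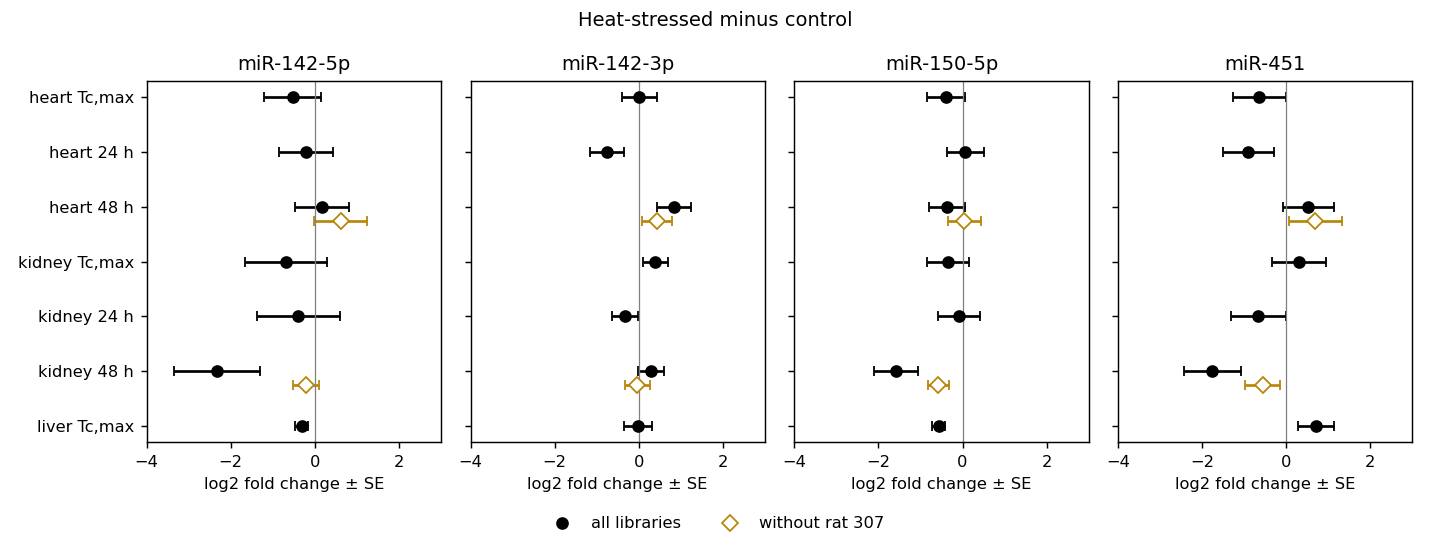
Log2 fold change ± SE, heat-stressed minus control, of each miRNA (x axis) in each organ and time (rows). Black points use all libraries and open diamonds leave out rat 307. In the kidney at 48 h miR-142-5p lies at -2.33 with that rat and at -0.21 without it, and no point passed the adjusted test.

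The difference between the heat effects was tested directly. Kidney minus heart at 48 h gave -2.50 for miR-142-5p (SE 1.19, adjusted p = 0.253), -2.29 for miR-451 (SE 0.93, adjusted p = 0.253), -1.21 for miR-150-5p (SE 0.69, adjusted p = 0.279) and -0.55 for miR-142-3p (SE 0.55, adjusted p = 0.653). Without rat 307 these were -0.82, -1.25, -0.62 and -0.47, with an adjusted p of 0.999 for each. Of 154 names 0% passed at any time, and 26 had an unadjusted p under 0.05 at 48 h. With the rat as a block 2 names passed at 48 h, none of them among the 4 miRNA, which had adjusted p = 0.157 for miR-142-5p, 0.147 for miR-451, 0.205 for miR-150-5p and 0.526 for miR-142-3p. The heat effect at 48 h minus that at T_c,max passed for 1.23% of the 163 heart names and 0% of the 175 kidney names. None of the 4 miRNA was among them (lowest adjusted p, heart 0.881, kidney 0.901).

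The 2 arms of miR-142 come from the same precursor, yet their ratio was far from constant. The 5p arm was the higher in most libraries. On the log2 scale, miR-142-5p minus miR-142-3p was 4.31 ± 0.41 (SD, n = 6) in heat-stressed and 4.61 ± 0.48 (SD, n = 6) in control livers. In control hearts it was 3.45 ± 1.14 (SD, n = 5) at T_c,max, 2.29 ± 0.58 (SD, n = 6) at 24 h and 1.64 ± 1.09 (SD, n = 6) at 48 h. In control kidneys it was 3.44 ± 0.39 (SD, n = 5), 3.57 ± 0.24 (SD, n = 4) and 3.14 ± 0.59 (SD, n = 5). At T_c,max the difference was 2.14 to 2.74 in heat-stressed kidneys and 3.07 to 4.10 in control kidneys, with no overlap. miR-142-5p, which is part of this difference, did not overlap there either, and nor did 15.4% of names. It is therefore not a result separate from that of miR-142-5p. These arm differences are described with no test. The values also carry how well each sequence enters a library, so that they give the change of a ratio and not the ratio in the cell.

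The order of the arms was reversed in 4 libraries. The 3p arm was the higher in the library labelled heart of rat 307 (difference -3.29), in the kidney of rat 307 (-6.83, or at most -4.10 with miR-142-5p at the limit of 3 reads), in the heart of heat-stressed rat 283 (-0.13) and in the heart of control rat 311 (-0.32). In the kidney of rat 307 the 3p arm had 60 reads where the 5p arm had 0. The table also lists miR-142 with no arm. In the kidney of rat 307 that name stood at 6.35, while the 3p arm was at 6.83. Over all 77 libraries its CPM was 0.717 to 1.636 times the sum of the 2 arms (median 0.965), and it was below that sum in 46, so that it is not their total.

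**Figure D4:**
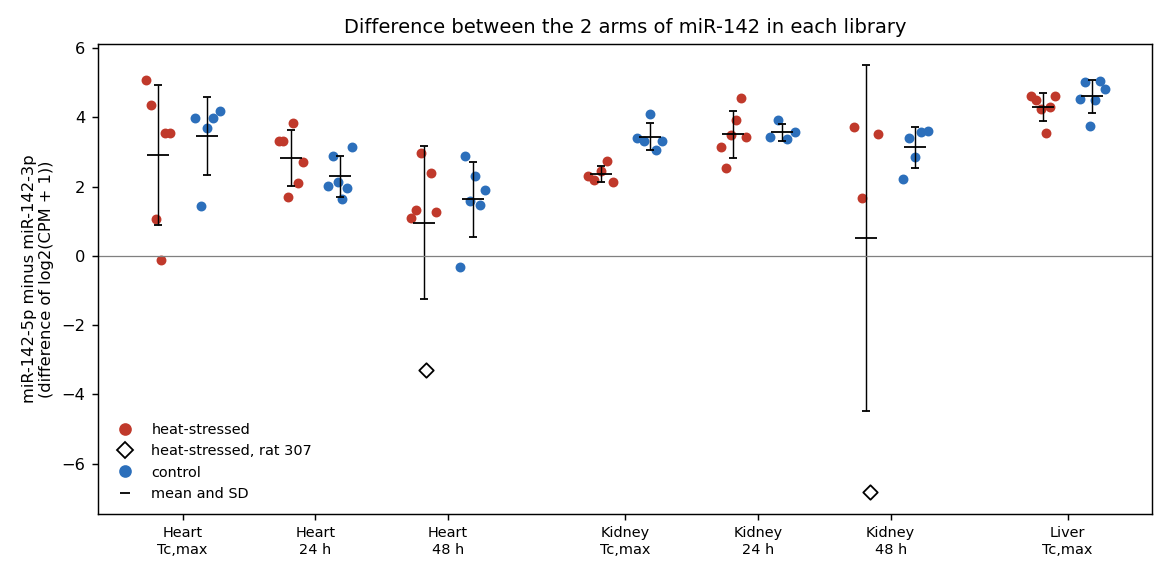
miR-142-5p minus miR-142-3p in each library, as a difference of log2(CPM + 1), by organ and time, with heat-stressed rats (red, rat 307 as open diamonds) left of controls (blue) and the mean and SD. Points below the line at 0, in which the 3p arm is the higher, are the 2 libraries of rat 307, at -3.29 and -6.83, and hearts of rats 283 and 311.

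The 5p arm of miR-142 and miR-150-5p varied together from library to library, and the other pairs less so once rat 307 was left out. Across the 64 heart and kidney libraries, as deviations from the group means, miR-142-5p and miR-150-5p had a Pearson r of 0.81, or 0.61 over 62 libraries without rat 307. For miR-142-5p with miR-142-3p r was -0.26, or 0.11 without that rat. For miR-451 with miR-142-5p it was 0.45, or 0.04, and with miR-150-5p 0.29, or -0.14. For miR-142-3p with miR-150-5p it was -0.43, or -0.13. These values are across libraries that share lanes and rats, and are a description with no test. Over the 64 libraries miR-142-5p was closer to miR-191a (r = 0.96), and miR-150-5p to miR-30c-1 (r = 0.91), than to each other. Within the kidney without rat 307 the pair of miR-142-3p and miR-451 stood at 0.51 over 28 libraries, and within the heart without rat 307 at -0.05 over 34.

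**Figure D5:**
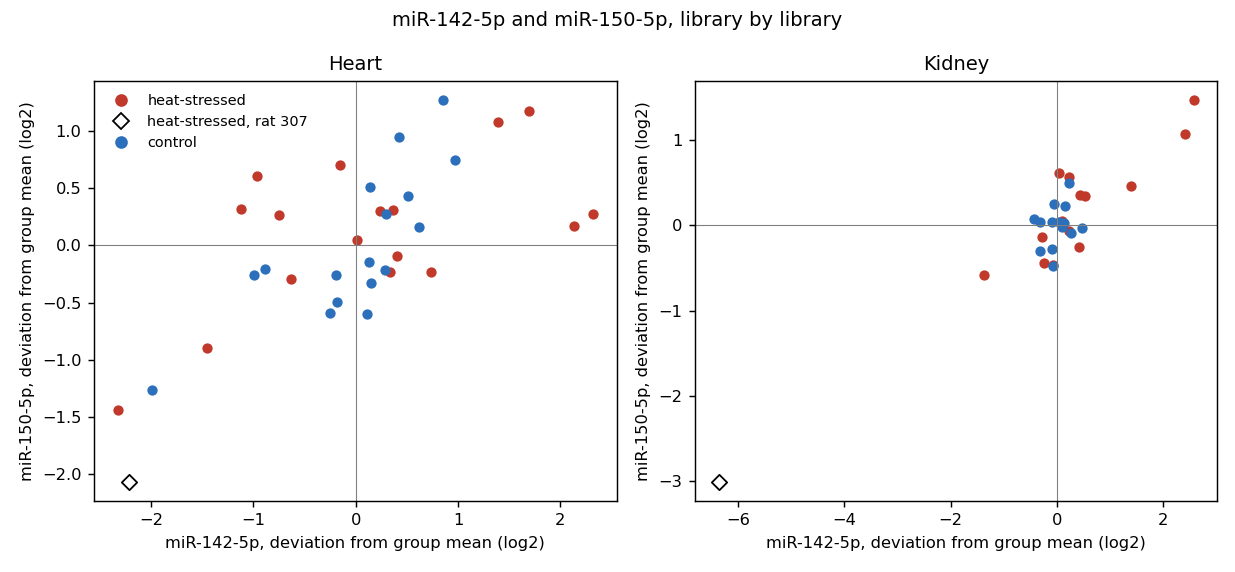
Deviation from the group mean (log2 scale) of miR-142-5p (x axis) and miR-150-5p (y axis) in each heart and kidney library, heat-stressed in red, rat 307 as an open diamond and control in blue. Both panels run from low left to high right, and rat 307 is the lowest point for miR-150-5p in each.

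The names that moved most like each of them were mostly not blood cell names. By the Pearson r of deviations over the 64 libraries, among 154 names, miR-142-5p was most like miR-191a, miR-191b and miR-191a-5p (r = 0.96, 0.96 and 0.95). miR-150-5p was most like miR-30c-1, miR-30c-2 and miR-322-5p (0.91, 0.91 and 0.90). miR-142-3p was most like miR-34c-5p, miR-34b-5p and let-7i-5p (0.73, 0.62 and 0.60), and miR-451 like miR-199a-3p, miR-199a and miR-195 (0.63, 0.61 and 0.56). Names with nearly equal values, such as miR-191a and miR-191b, may share reads. The miR-34 family is known as a target of the tumour suppressor p53. Without rat 307, miR-142-5p was most like miR-142 with no arm (0.96), followed by miR-191a and miR-191b (0.91 each), and 2 of the 3 names most like miR-150-5p and 2 of the 3 most like miR-142-3p stayed the same. For miR-451 all 3 changed, to miR-3588, miR-125b-5p and miR-100-5p, at r of 0.48 to 0.49. In the library labelled heart of rat 307 miR-34c-5p was at 12.55, against 6.09 to 7.69 in the other 5 heat-stressed hearts at 48 h.

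Whether rats that stood high in the heart also did so in the kidney was asked over rats with both organs, and none of the 4 miRNA passed. Over 27 rats with both organs, r was 0.41 for miR-142-5p (permutation p = 0.411), 0.49 for miR-142-3p (p = 0.106), 0.54 for miR-150-5p (p = 0.17) and 0.34 for miR-451 (p = 0.0255). Spearman's rho was 0.15 (p = 0.501), 0.38 (p = 0.12), 0.13 (p = 0.554) and 0.42 (p = 0.0341). After adjustment over all 154 names the permutation p for Pearson's r was 0.623, 0.359, 0.407 and 0.246, and for Spearman's rho 0.718, 0.362, 0.741 and 0.28. Of the 154 names 0.649% passed. Without rat 307 r was -0.08, 0.23, -0.10 and 0.36, and without the 2 rats farthest from the median of the heart values 0.00, 0.13, 0.12 and 0.33. The r of miR-142-5p and miR-150-5p thus rested on rat 307, that of miR-142-3p was lower without it, and that of miR-451 changed little.

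The hearts varied more than the kidneys once rat 307 was left out. The SD within groups for miR-142-5p was 1.10 among hearts and 0.45 among kidneys. It was 0.57 and 0.42 for miR-142-3p, 0.67 and 0.37 for miR-150-5p, and 1.08 and 0.62 for miR-451. The median SD was 0.45 over the 163 heart names and 0.22 over the 175 kidney names. miR-142-5p and miR-451 were the seventh and eighth widest names in the heart, and in the kidney they were at places 17 and 9.

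None of the 6 other leukocyte names and 4 other red cell names listed here passed the test for heat stress either. These lists were chosen with results of these data known. They were drawn up with miR-223, miR-155, miR-342, miR-144, miR-486 and miR-15b as well, none of which is among the 185 names. The lists therefore say nothing of those miRNA. The leukocyte list had 9 names, among them miR-142-5p, miR-142-3p and miR-150-5p, and the others were miR-142 with no arm, 3 names of miR-181a and 2 of miR-146a. The red cell list had 5 names, miR-451, miR-16-5p, miR-25-3p, miR-92a-3p and miR-92a-1. In all 7 heat comparisons 0 of 9 and 0 of 5 names passed. At 48 h the median log2 fold change was -0.81 for the leukocyte list and -1.32 for the red cell list in the kidney, where it was -0.43 over all names, and 0.17 and 0.52 in the heart, where it was 0.16 over all names. The kidney values rested on rat 307. Without it, a setting chosen after seeing the data, the kidney medians were -0.03 for the leukocyte list and -0.04 for the red cell list, against -0.01 over all names, and the heart medians 0.33 and 0.51, against 0.17. miR-16-5p, which is made in most cells as well as in red cells, was at -1.43 in the kidney (SE 0.66, adjusted p = 0.26) and miR-25-3p at -1.32 (SE 0.61, adjusted p = 0.26). Without rat 307 these were -0.04 (SE 0.15) and -0.06 (SE 0.16), with an adjusted p of 1 for both.

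In liver minus heart at T_c,max the other leukocyte names were called in both directions and the other red cell names only as higher. miR-92a-3p was higher in the liver by 2.95 (SE 0.18, adjusted p = 5.92e-16) and miR-25-3p by 1.06 (SE 0.26, adjusted p = 0.00505). miR-92a-1 also passed, with averages of 14.36 in control livers and 11.01 in control hearts. Of the 5 red cell names 3 thus passed as higher and 0 as lower, where 71.9% of all names passed. That count is too small to be set above or below this share. miR-451, at -1.07, did not pass. In kidney minus heart at 24 h the red cell names miR-451 and miR-16-5p were both higher in the kidney, miR-16-5p by 0.77 (adjusted p = 0.0212). In the leukocyte list 3 names were higher in the liver and 3 lower, so that 6 of 9 passed where 71.9% of all names did, a share near that background. The higher names were miR-142-5p, miR-142 with no arm (0.99, SE 0.20, adjusted p = 0.001721) and miR-146a with no arm (0.72, SE 0.21, adjusted p = 0.0445). Over all libraries the CPM of miR-142 with no arm was at a median of 0.965 times the sum of its arms. It is therefore not a result separate from miR-142-5p. The other entry of miR-146a, miR-146a-5p, did not pass, with averages of 8.898 in control livers and 8.555 in control hearts. The lower names were the 3 of miR-181a, with miR-181a-5p at -1.05 (SE 0.135, adjusted p = 5.103e-06). miR-181a is abundant in developing lymphocytes and is also made in many other tissues.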

How the data were processed

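Small RNA libraries (TruSeq kit, 1 flow cell lane per tissue) were trimmed by the authors with cutadapt 2.6, per the submitters' processing notes, and counted by perfect match to miRBase release 19. The values were deposited by the authors as log2(CPM + 1) for 185 names in 77 libraries, 105 of them with an arm. Labels cover 134 samples, and lung and the other livers were not analysed here. Whole reads were recovered from the steps of the values (1820 of 1820 low values within 0.05 of a whole read, all 77 libraries), which gave the depths and read counts. Limits from 3 reads cover counting error only.

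Values were compared with limma 3.58.1 in R 4.3.3 (treat against a fold change of 1.25, with trend), with Benjamini-Hochberg adjustment over all names tested and an FDR of 0.05. Heart, kidney and liver were fitted apart, with all groups of an organ in 1 fit, on names that reached 5 reads in each library of some condition (163, 175 and 176 names). Organs were compared over all 185 names in 1 fit of the control rats. Differences of heat effects between organs used 1 fit of heart and kidney (154 names). Comparisons of heat stress against control were repeated with exact two-sided permutation tests, and those between organs or times were not. Correlations between organs used 100000 permutations (scipy 1.17.1). Alternatives were median-ratio scaling, no filter, no fold cutoff, log2(CPM + 5), voom on recovered reads, each library left out in turn, rat 307 left out, only the 2 compared groups, pooled controls, and the rat as a block. Organs of the same rat carry its number in the titles, which pairs them. The within-rat correlation was 0.0631 in control rats and 0.2609 over heart and kidney. Heat-stressed and control rats are different animals. The members, the blood cell lists and the choice of rat 307 were made with earlier results of these data known. The members are always named, as are the 3 names most like each and list names that passed a test or stand beside a member. Libraries of a group are separate rats. Scripts were tested on simulated data.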

Additional observations from a re-analysis of the deposited data

Results flagged for a closer look

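In groups of 4 to 10 rats, 9 values stood far from the rest of their group by Dixon's criterion. The 70 checks covered the 4 miRNA and the arm difference in each group. Chance alone gives about 1 in 20 checks. The arm difference is made from the 2 arms of miR-142, so that its checks are not independent of theirs. Control rat 289 at T_c,max had a heart miR-142-5p of 7.60, below the other 4 control hearts at 8.72 to 9.02, and a heart miR-142-3p of 6.15, above the others at 4.75 to 5.05. Its arm difference of 1.45 was therefore also the lowest, below 3.69 to 4.18. Control rat 294 at T_c,max had a heart miR-150-5p of 10.35, above 9.07 to 9.25 in the other control hearts. Rat 307, heat-stressed at 48 h, gave 4 of the values. In its kidney miR-142-5p stood at 0.0 and miR-451 at 1.53, below the other heat-stressed kidneys at 7.76 to 8.94 and 5.99 to 6.49. In the library labelled heart of rat 307 miR-150-5p was 7.12, below 9.36 to 9.90, and the arm difference was -3.29, below 1.10 to 2.97. Heat-stressed rat 283 at T_c,max had a liver arm difference of 3.54, below 4.25 to 4.63 in the other 5 heat-stressed livers.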

How the results depend on the processing

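The 4 miRNA gave 0 calls in each of the 7 heat comparisons under all settings run. Of their fold changes, 644 of 688 with 1 library left out and 425 of 444 under the other settings kept direction and side of the threshold. In kidney minus heart the calls among the 4 were 0 at T_c,max and 1 at 48 h. At T_c,max they were 1 with median-ratio scaling and 3 with no fold cutoff, and at 48 h 3 with no fold cutoff and 2 with voom. With libraries left out they ranged from 0 to 1 at both times. For liver minus heart there was 1 call, with 2 under no fold cutoff, 2 with the rat as a replicate block (miR-451 at -1.07, adjusted p = 0.0489) and 1 to 2 with libraries left out. The block changed no other call of the 4 miRNA. For liver minus kidney there was 1 call, with 3 under median-ratio scaling and 2 with no fold cutoff. Median-ratio scaling moved the median of all names in liver minus kidney to 0.28, against -0.14, and in liver minus heart to 0.15, against -0.15. Small fold changes turned sign. With pooled controls miR-142-3p at T_c,max and miR-142-5p at 48 h in the heart were -0.76 and -0.26, and miR-150-5p at T_c,max and 24 h moved to -0.94 and 0.90. With median-ratio scaling heart miR-150-5p at 24 h was -0.024 and liver miR-142-3p 0.0497 (0.0313 with voom). Without rat 307 heart miR-150-5p and kidney miR-142-3p at 48 h were 0.0454 and -0.0313, and the correlations between organs were -0.076 for miR-142-5p and -0.097 for miR-150-5p. With libraries left out, heat fold changes in the heart ranged from -0.13 to 0.27 (miR-142-3p, T_c,max), from -0.0521 to 0.32 (miR-150-5p, 24 h), from -0.29 to 0.61 (miR-142-5p, 48 h) and from -0.62 to 0.0454 (miR-150-5p, 48 h). In the kidney they ranged from -0.20 to 0.0286 (miR-150-5p, 24 h) and from -0.0313 to 0.56 (miR-142-3p, 48 h), and in the liver from -0.18 to 0.15 (miR-142-3p). In control hearts, 24 h minus T_c,max ranged from -0.32 to 0.10 (miR-142-5p) and from -0.28 to 0.53 (miR-451), and liver minus heart from -0.13 to 0.28 (miR-142-3p). Over all names, heat at 48 h in the heart gave 2 calls, with 10 under no fold cutoff, 4 with pooled controls and 0 with only the compared groups or exact tests. With no fold cutoff, control hearts at 24 h and 48 h minus T_c,max gave 8 and 13 calls, against 3 and 2, liver heat 1, against 0, and the heat effect of kidney minus heart at 48 h 2 (also 2 with the block), against 0. The heat effect of heart 48 h minus T_c,max gave 2 calls, with 4 under no cutoff and 0 with median-ratio scaling, voom or without rat 307, and kidney heat at T_c,max gave 1, against 0, with only the compared groups. The causes of these changes were not tested. Depth limits miR-451 and miR-142-3p most, at 2 to 14 and 4 to 17 reads per liver.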
